A study of Mus musculus with 2 samples.

Results

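Schwann cell precursors are glial cells of the neural crest that travel along growing nerves and later give rise to Schwann cells and to part of the autonomic ganglia and the adrenal medulla. They depend on neuregulin, a growth factor displayed by axons and read through the receptor ERBB3, and they are kept in the glial lineage by the transcription factor SOX10. In a dissected embryonic ureter such cells would accompany its nerve fibres. The data below concern 8 genes used as markers of these cells: Fabp7, Sox10, Erbb3, Foxd3, S100b, Gfra3, Cdh19 and Ngfr. They were picked by name from the 21090 genes tested, with earlier results of the same comparison known, so their values are given as a description with no test. Each was read by 1 probe, 8 probes of 39429 on the array.

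Ureters came from male NMRI mouse embryos at E13.5. Tbx2-GOF embryos had the genotype Tbx18(cre/+);Hprt(Tbx2/Y) and control embryos Tbx18(+/+);Hprt(Tbx2/Y), so both genotypes carried the Tbx2 allele at Hprt and differed in the cre at 1 Tbx18 allele. Tbx2-GOF embryos thus had 1 normal Tbx18 allele and controls 2, so effects of Tbx2 and of Tbx18 dose cannot be told apart. Tbx18 is a gene of the mesenchyme around the ureter, and cre from that locus acts in cells that have expressed Tbx18. There were 2 two-colour arrays, each with 1 Tbx2-GOF and 1 control extract. Tbx2-GOF was in the red dye on array 1 and in the green dye on array 2. Whether extracts were pooled or came from separate embryos is not stated in the labels, so n = 2 below counts arrays and the spread may be technical. RNA was taken from whole ureters, where fewer cells of a type and less RNA per cell cannot be told apart.

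The median spot read 348 (array 1) and 382 (array 2) in green, where the local background was 28 on each, and 452 and 449 in red, where it was 94 and 87.5. All 8 probes were well above background in both channels of both arrays. Cdh19, Erbb3 and Foxd3 were the dimmest in control. Their control signals on array 2, background-subtracted and dye-normalized by the scanner software, were 45.1, 56.3 and 86.3. Control was in red there, and all 3 were brighter on array 1. Ureter markers were detected in both groups: all 12 of 12 genes fixed as such, among them Tbx18, Shh and Upk1b, were well above background in both channels of both arrays. As most probes on the array were (66.4% to 72.7%, by group and array), this does not by itself identify the tissue.

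The probes are 60 bases long. The last 30 bases of 7 of them, 5′ to 3′, are shown to make plain which transcripts were measured. They are copied from the scanner files with mm9 positions, and capitals mark the polyadenylation signal AATAAA.
Fabp7, chr10:57508069-57508098, plus strand: cttcggtgtggaggtagaaaattataattc
Sox10, chr15:78985518-78985547, minus strand: tccagcgataccttAATAAAgtacgtagct
Erbb3, chr10:128006424-128006453, minus strand: ttccctaaggctaacgcccagagaatttga
Foxd3, chr4:99325200-99325229, plus strand: gtataaagacgttgggagattttaaatcca
S100b, chr10:75723813-75723842, plus strand: tattcaaatagcgacgttttaaataatcca
Cdh19, chr1:112785846-112785875, minus strand: agaattctgggtggtttcataaaggaacac
Ngfr, chr11:95430211-95430240, minus strand: ttcatgttccctgacacttcccctttgcat
The signal, by which a transcript's 3′ end is cut, occurred in the Sox10 probe alone among the 8, against 10.6% of all 39429 probes in the same window.

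As a group the 8 genes read higher in Tbx2-GOF, with a median log2 ratio of Tbx2-GOF over control of 0.74 against -0.00 over all genes tested. Taken array by array, the median was 0.54 (array 1) and 0.93 (array 2). By mean ratio Fabp7 was highest and S100b lowest, although on array 1 Gfra3 and Erbb3 lay below S100b. On array 1, 3 of the 8 were at least 1.5-fold higher in Tbx2-GOF, where 1.91% of all genes were; on array 2 it was 7 of 8, against 3.58% of all genes. The same 3 genes, Fabp7, Foxd3 and Cdh19, passed 1.5-fold on both arrays, a mark that 0.825% of all genes reached. For Foxd3 and Cdh19 the ratio on array 2 rests on the weak control signals given above. Since the genes were picked on this comparison, these shares are given for scale and nothing is read from them.

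**Figure D1:**
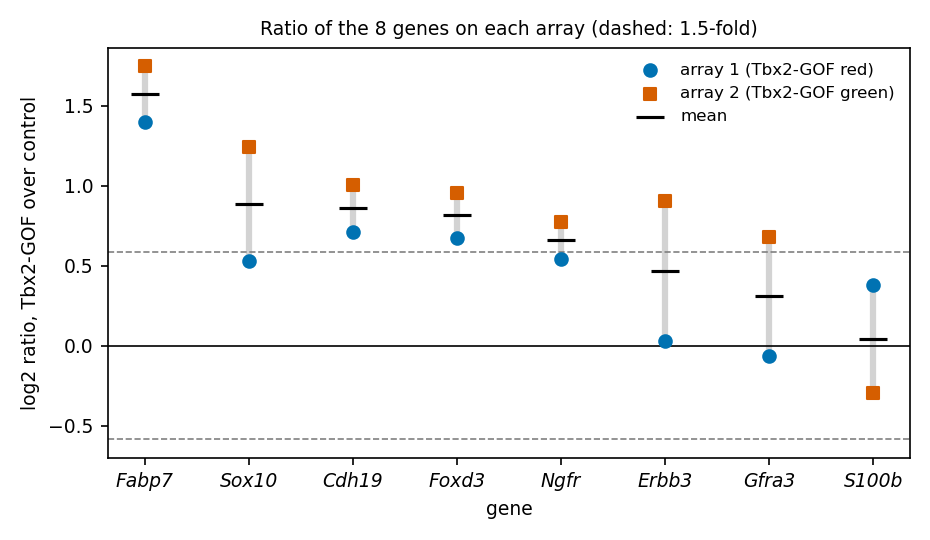
Log2 ratio of Tbx2-GOF over control for each of the 8 genes, ordered by mean, with a point for each array, a bar for the mean and dashed lines at 1.5-fold either way. Fabp7 stands above the others on both arrays, Erbb3 and Gfra3 leave 0 on array 2 only, and S100b changes side between the arrays.

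Levels in each channel are log2 intensities after loess and Aquantile normalization, which makes the arrays comparable for 1 probe; they do not compare different genes. Fabp7, the brain-type fatty acid-binding protein found in glial precursors, read 12.40 and 12.24 in the control channel and 13.79 and 13.98 in the Tbx2-GOF channel of arrays 1 and 2. The pair of Tbx2-GOF values lay well clear of the control pair. Its log2 ratio was 1.57 ± 0.25 (SD, n = 2), or 2.63-fold on array 1 and 3.36-fold on array 2. By mean ratio it ranked 7 among the 21090 genes. It was the 1 gene of the 8 to reach 2-fold on both arrays, a mark that was not counted over all genes.

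Sox10 and Foxd3 encode transcription factors. Sox10, the SOX factor that specifies and maintains neural crest glia, read 12.07 and 11.33 in control and 12.60 and 12.57 in Tbx2-GOF. The Tbx2-GOF values were nearly equal while the control value was lower on array 2, and the log2 ratio was 0.53 and 1.24 on the 2 arrays (0.89 ± 0.50). Foxd3, a forkhead factor of the early neural crest and its glial descendants, read 8.61 and 8.40 in control and 9.29 and 9.36 in Tbx2-GOF. Its ratio was 0.67 and 0.96 (0.82 ± 0.20), so the arrays differed less for Foxd3 than for Sox10.

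Among the receptors, Erbb3, which pairs with ERBB2 to bind neuregulin, read 8.78 and 8.09 in control and 8.81 and 8.99 in Tbx2-GOF. On array 1 the groups were practically equal, and the ratio was 0.03 there and 0.90 on array 2 (0.47 ± 0.62). Gfra3, the co-receptor with which RET binds artemin, read 13.08 and 12.29 in control and 13.02 and 12.97 in Tbx2-GOF, giving -0.06 and 0.68 (0.31 ± 0.53). The control value on array 1 was above both Tbx2-GOF values. For both genes the SD exceeded the mean.

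Ngfr encodes the p75 neurotrophin receptor. It read 11.93 and 11.66 in control and 12.47 and 12.44 in Tbx2-GOF, a ratio of 0.54 and 0.78 (0.66 ± 0.17). Its probe was spotted 10 times on each array, which shows the error within an array: the log2 ratio over spots ran from 0.47 to 0.64 on array 1 (SD 0.061) and from 0.68 to 0.88 on array 2 (SD 0.067). The spots of the 2 arrays did not overlap, so the gap between arrays was larger than the error between spots. Over the 399 probes with several spots the median SD was 0.066 on array 1 and 0.065 on array 2.

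The remaining genes encode an adhesion and a calcium-binding protein. Cdh19, a cadherin largely restricted to the Schwann lineage, read 8.37 and 7.81 in control and 9.08 and 8.81 in Tbx2-GOF, with a ratio of 0.71 and 1.01 (0.86 ± 0.21). Both groups read lower on array 2. S100b, a calcium-binding protein of glia that comes up as Schwann cells form, read 9.92 and 10.34 in control and 10.30 and 10.04 in Tbx2-GOF. Its groups overlapped, with a ratio of 0.38 on array 1 and -0.29 on array 2 (0.04 ± 0.48). In all, 6 of the 8 genes, all but S100b and Gfra3, had both Tbx2-GOF levels above both control levels, as did 18.3% of all genes.

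**Figure D2:**
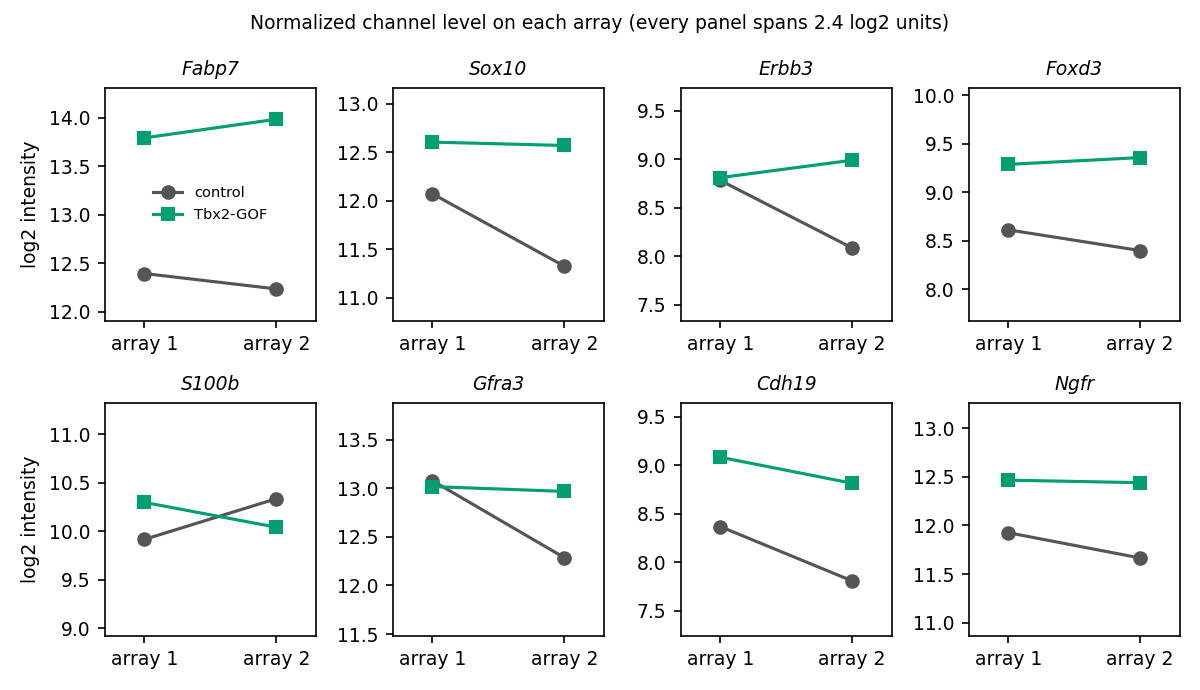
Normalized log2 intensity of the control and Tbx2-GOF channels on arrays 1 and 2, a panel for each gene, all panels spanning the same range. The Tbx2-GOF level differs between arrays by -0.05 to 0.07 for Sox10, Foxd3, Gfra3 and Ngfr, and by 0.19 for Fabp7, 0.18 for Erbb3, -0.26 for S100b and -0.27 for Cdh19; the control level is lower on array 2 for every gene but S100b, most for Gfra3 (-0.79) and Sox10 (-0.74).

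Taken over the 8 genes, the gap between arrays lay mostly in the control channel; Fabp7, with -0.16 in control and 0.19 in Tbx2-GOF, was an exception. The control level was lower on array 2 than on array 1 for 7 of the 8 genes, as it was for 51.2% of all genes. The median difference was -0.41 on the log2 scale, where that of all genes was -0.01. The Tbx2-GOF level moved by a median of -0.03, against -0.005 over all genes, and was higher on array 2 for 3 of the 8. Of all genes, 9.69% had a control level at least as much lower on array 2 as the median of the 8. For Sox10 and Gfra3, with the largest falls in control, the software's own processed signals had the same order. Sox10 was at 1339 and 783 in control and at 2048 and 1770 in Tbx2-GOF. Gfra3 was at 2515 and 1405 in control and 2445 and 2191 in Tbx2-GOF. The order was not the same for every gene. For Foxd3 the processed Tbx2-GOF signal was 204 and 198, lower on array 2, where its normalized level was higher. The control extract was green on array 1 and red on array 2, so extract and dye cannot be told apart here.

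Neuronal genes had the same pattern, with larger gaps. The list of 10 neuronal genes had a median log2 ratio of 0.97 (0.50 and 1.76 on arrays 1 and 2), and 0 of 10 passed limma's test over all genes in either direction. Its control levels differed by a median of -1.26 between arrays 2 and 1 (lower on array 2 for 9 of 10 genes), and its Tbx2-GOF levels by 0.07. Summed over the list, the control level was 63856 and 38735 on arrays 1 and 2 and the Tbx2-GOF level 87649 and 96391. Nefm, a neurofilament subunit, was at 0.62 and 2.44, and Elavl4, a neuronal RNA-binding protein, at 0.65 and 1.93 (adjusted p = 0.148 and 0.112); Snap25, of the synaptic vesicle machinery, was at 0.16 and Dcx, of migrating neurons, at 0.51 on average. All 10 were well above background in both groups. The part of nerve tissue in the values of the 8 genes was not tested.

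The sympathetic lineage followed the neurons. Of its 10 genes 1 passed the test, upward, where 0.36% of all genes passed upward and 0.28% downward. Th, tyrosine hydroxylase, which starts catecholamine synthesis, rose by 0.93 and 1.74 on the 2 arrays (1.34 ± 0.57, adjusted p = 0.0433). The call on Th was lost in a separate-channel model with the array as a block (limma adjusted p = 0.214), with offset 0 (0.0542), with trend and robust estimation (0.0570), with centring on the median (0.502), with the signals processed by the software (0.181) and with the series value table (0.163). Isl1, a LIM homeobox factor of these neurons, was at 0.80 on average and Gata2 at -0.03. The list median was 0.97, and the summed control level was 121266 and 62623 on arrays 1 and 2 against 138191 and 143352 for Tbx2-GOF. The ratio on array 2 exceeded that on array 1 by a median of 1.22 for these genes and 1.31 for the neurons, but by 0.32 for the 8 precursor genes.

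**Figure D3:**
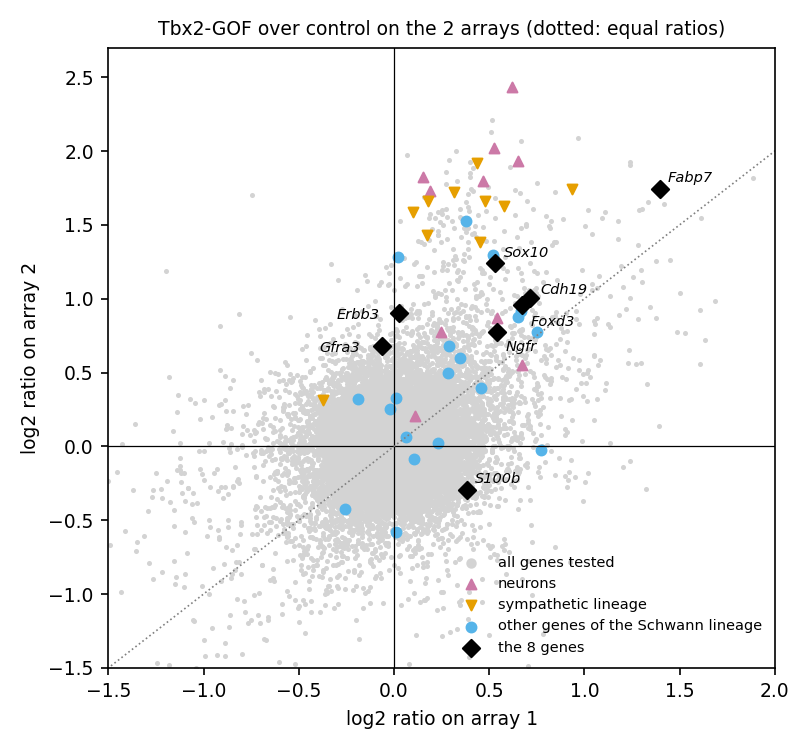
Log2 ratio of Tbx2-GOF over control on array 1 against array 2 for all genes tested (70 lie outside the plotted range), with the 8 genes as named diamonds and 3 gene lists in colour; the dotted line marks equal ratios. By median the neuronal genes lie 1.31 and the sympathetic genes 1.22 above the line, and the 8 genes 0.32; Syt1 of the neuronal list and S100b lie below it.

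Other genes of the Schwann lineage were mostly higher without passing the test. Of 20 on the list 19 could be measured, and 0 passed in either direction. A mean ratio above 0 was found for 17, where the median over all genes was -0.00. The list median was 0.39, with 0.28 on array 1 and 0.39 on array 2. It fell to 0.27 when the probes of a gene were averaged, a move of at least the SD between arrays. Gap43, a growth cone protein also made by neurons, was at 0.38 and 1.52 (adjusted p = 0.188) and Sox2, a factor of immature glia, at 0.52 and 1.30 (0.116). At the other end were Pmp22, a myelin protein, at -0.34 and Mia at -0.29. Lgi4, a secreted Schwann cell protein, at 0.67 and 0.92 (adjusted p = 0.0656), and Ttyh1, at 0.65 and 0.88 (0.0692), were each at least 1.5-fold higher on both arrays and are named here after their values were seen. Their ratios were of the size of those of Foxd3 and Cdh19 on both arrays. Egr2, a factor of later myelination, was not kept as measured.

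Lists for other pigment and glial cells had medians near 0. Melanoblasts also descend from Schwann cell precursors; 5 of their 7 genes could be measured, 0 passed in either direction, and the median was -0.07. Pmel was at 0.07, Mlana at -0.01, Tyr at -0.09 and Kit at -0.10, and Dct and Tyrp1 were not well above background on both arrays in either group. Of 7 genes of central nervous system glia 4 were measured and 0 passed (median -0.05): Hes5, a Notch target, was at 0.56, Aqp4 at 0.09, Aldh1l1 at -0.19 and Slc1a3 at -0.27. Olig1, Olig2 and Pax6 were not well above background on both arrays in either group.

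**Figure D4:**
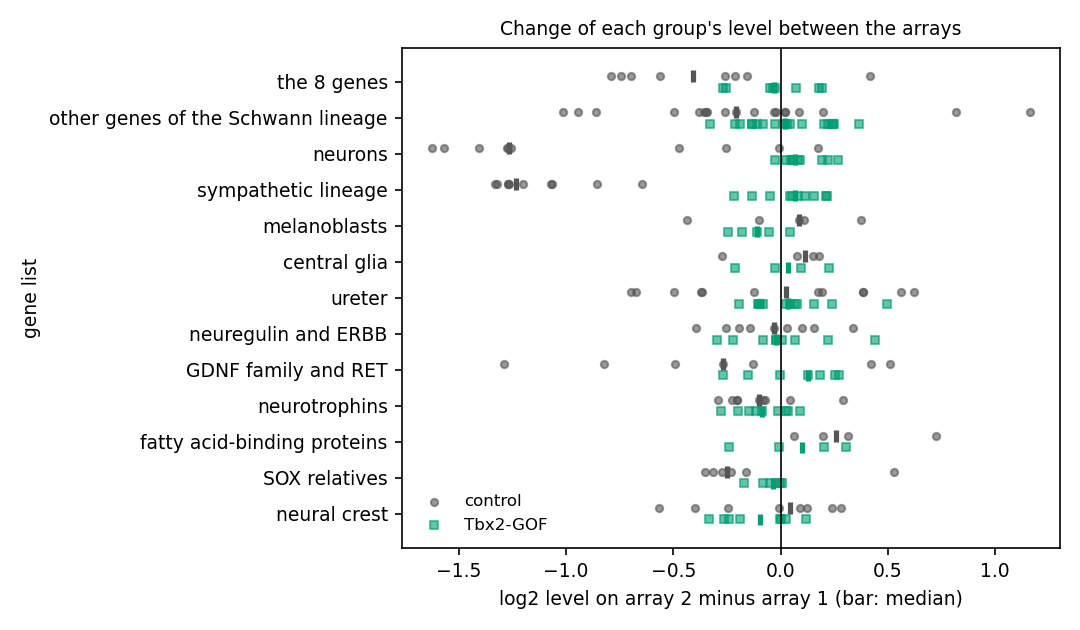
Log2 level on array 2 minus array 1 for each gene of each list, separately for the control and Tbx2-GOF channels, with a bar at each median. The control medians of the 8 genes, the neurons and the sympathetic lineage lie to the left of 0 (-0.41, -1.26 and -1.23), with S100b and Syt1 to its right, whereas the Tbx2-GOF medians of those lists lie between -0.03 and 0.07. Control medians also lie to the left for GDNF family and RET (-0.27), SOX relatives (-0.25), other Schwann lineage genes (-0.21), neurotrophins (-0.10) and neuregulin and ERBB (-0.03). The control medians of the remaining lists lie to the right.

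Partners of the receptors were measured as well. In the neuregulin and ERBB list 9 of 13 genes were measured and 0 passed in either direction (median -0.08). Nrg1, a neuregulin that ERBB3 binds, was at 0.67 and 0.62 on the 2 arrays (0.65 ± 0.04, limma adjusted p = 0.0967). The arrays differed by less for Nrg1 than for Erbb3. Nrg2, named here after its values were seen, was at -0.02 and -0.34. Erbb2, the signalling partner of ERBB3, was at -0.14 and 0.06. Egf was at 0.22, Hbegf at -0.30 and Btc, betacellulin, at -0.46.

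In the GDNF family and RET list 1 of 7 measured genes passed, upward, as did 0.36% of all genes. Gdnf, the ligand that drives ureteric bud outgrowth, rose by 1.53 ± 0.16 (adjusted p = 0.0188). Its call was lost in the separate-channel model (0.105), with median centring (0.439), with the processed signals (0.0700) and with the series value table (0.108). Ret, the signalling receptor shared by the family, was at 0.61 and 1.89 (0.121), and its control level was 10.25 and 8.96 against 10.86 and 10.86 in Tbx2-GOF. Artn, artemin, the ligand of GFRA3, was at 0.67 and 0.41 (0.182), while Nrtn and Gfra4 were at -0.15 and -0.18. The list median was 0.54.

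Among the neurotrophins and their receptors Bdnf, a ligand of NGFR and of the receptor encoded by Ntrk2, was at 0.44 (adjusted p = 0.264) and Ntrk2 at -0.35 (0.412). The median of the 9 measured genes of the list was 0.30.

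Relatives of Fabp7 and Sox10 had smaller mean ratios. Of 8 other fatty acid-binding protein genes 4 were measured and 0 passed: Fabp4 was at 0.36 (0.73 on array 1 and -0.00 on array 2), Fabp5 at 0.24, Fabp2 at -0.06 and Fabp3 at -0.45. Of 6 SOX relatives 0 passed, and all 6 had a mean above 0, with a median of 0.15 against -0.00 over all genes. Sox8, a factor of the same SOXE group as Sox10, was at 0.41, Sox4 at 0.27, Sox6 at 0.08 and Sox5 at 0.04.

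Of 8 genes listed as neural crest 1 passed, downward, where 0.28% of all genes passed downward. The call was on Foxd1, a forkhead gene best known from renal stroma, with a log2 ratio of -0.98 ± 0.30 (limma adjusted p = 0.0474). That call was lost in the same 4 settings as for Gdnf (0.139 in the separate-channel model, up to 0.522 with median centring) and with offset 0 (0.0632). Msx1 was at 0.52, Pax3 at 0.42 and Twist1 at -0.63, with a list median of 0.12. Of the 12 ureter genes 0 passed and the median was -0.10. Gata3 was at 0.73 and Cdh1 at 0.32, Foxf1 at -0.44 and Tbx18 at -0.45. For Tbx18 the genotypes differed at the gene itself.

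Among the genes whose pair of array ratios lay nearest to the pair of medians of the 8 were Lrp11, Lama1, Calca and Aldh1a2. Likeness was the distance between the pairs of log2 ratios, over 2 arrays, and was 0.025 for Lrp11, 0.036 for Lama1, 0.040 for Calca and 0.048 for Aldh1a2. Calca encodes the neuropeptide CGRP of sensory nerves, Lama1 a laminin chain and Aldh1a2 an enzyme of retinoic acid synthesis.

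Promoters of 4 of the 8 genes were matched in RefSeq's table of build GRCm38.p6: Fabp7, Foxd3, S100b and Ngfr. Within 250 bases before and 50 after the start, on both strands, none of the 4 held the T-box core GGTGTGA (3.98% of 32851 promoters), or the SOX cores ACAAAG (18.7%) or ACAATG (12.6%). The CCAAT box, a general promoter element looked for after these results, was found in the 250 bases before the start of 2 of the 4, Fabp7 and S100b, and of 33.8% of all promoters. These are the genes with the highest and lowest mean ratio, and their sequences are shown 5′ to 3′ with CCAAT or its reverse complement in capitals.
Fabp7, chr10:57784673-57784922, plus strand: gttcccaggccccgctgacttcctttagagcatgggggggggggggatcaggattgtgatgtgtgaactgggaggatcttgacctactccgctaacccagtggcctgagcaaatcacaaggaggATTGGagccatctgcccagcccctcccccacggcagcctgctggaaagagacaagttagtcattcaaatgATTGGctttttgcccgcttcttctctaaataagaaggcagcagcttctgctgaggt
S100b, chr10:76253586-76253835, plus strand: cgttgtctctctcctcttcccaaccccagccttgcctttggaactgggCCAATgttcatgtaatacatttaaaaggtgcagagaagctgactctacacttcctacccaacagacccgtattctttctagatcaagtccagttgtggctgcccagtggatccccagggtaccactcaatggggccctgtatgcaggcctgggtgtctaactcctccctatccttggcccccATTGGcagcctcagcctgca
The boxes begin 126 and 56 bases before the start in Fabp7 and 202 and 20 bases before it in S100b. In GC content the stretches were alike, 54.8% for Fabp7 and 53.6% for S100b, against 65.6% for Foxd3 and 70.4% for Ngfr.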

How the data were processed

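The submitters' processing notes name Agilent Feature Extraction 10.7.3.1, which made the scanner files. Spot and background signals are intensity values as scanned, and processed signals are intensity values background-subtracted and dye-normalized by the software, per the file headers. Per the file headers, log ratios in these files are log10, red over green. In the series value table the authors deposited a signed fold ratio; its scale, centring and direction were not stated and were read from the values (median 1; within 0.01 of the turned log10 ratio for 99.2% and 98.8% of probes above background in both channels).

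Here limma 3.58.1 in R 4.3.3 applied normexp (offset 50) and loess (span 0.3) within arrays, with control and flagged spots (209 and 391) at weight 0. Ratios were turned by the labelled dyes, with positive log2 values for genes higher in Tbx2-GOF. Spots of a probe were averaged. A probe was kept where either group was well above background on both arrays (26471 of 39429), and the brightest kept probe stood for a gene; symbols came from RefSeq GRCm38.p6 for 26526 probes. The 21090 genes were tested with lmFit and eBayes, two-sided, Benjamini-Hochberg adjusted at 0.05; the code was tested on simulated data. The number of arrays limits the precision. The 8 genes and all lists were chosen with earlier results of these data known. Genes were named by a fixed rule: the 8, list genes past the test, the 2 highest and 2 lowest of each list, direct partners (among them Nrg1, Erbb2, Ret and Artn) and the 5 genes nearest by ratio. Some genes that the rule names are not reported here.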

Additional observations from a re-analysis of the deposited data

How the results depend on the processing

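The ratios of the 8 genes changed little: of 72 values in 9 settings with both arrays, 0 moved by as much as the SD between arrays. Settings that changed only the filter or averaged a gene's probes could not move these values. Each of the 8 had 1 probe, which passed every filter. The series value table repeated the values of the processed signals for all but Ngfr. Fabp7 ranged from 1.56 to 1.59, Sox10 from 0.86 to 0.90, Erbb3 from 0.43 to 0.56, Foxd3 from 0.81 to 0.95, Cdh19 from 0.82 to 1.06, Ngfr from 0.65 to 0.67, Gfra3 from 0.28 to 0.32 and S100b from 0.01 to 0.07. With 1 array left out their median ran from 0.54 to 0.93. The count at least 1.5-fold higher on both arrays was 3 or 4. Of 108 list medians 8 moved by at least the SD. Counts over all genes depended on the setting, and the cause was not tested. Genes past limma's threshold numbered 0 higher and 0 lower with the series value table, centring on the median and the processed signals, 2 and 2 with the separate-channel model (array as replicate block), 197 and 116 with scaling, 167 and 108 with no filter and 125 and 91 with the mean of probes, against 76 and 59. Genes of the fixed lists past it, 3 higher and 1 lower as reported, numbered 0 and 0 in the first 4 of those settings, 13 higher with scaling, 7 with no filter, 5 with the mean of probes and with trend and robust estimation, and 0 lower with offset 0. At least 1.5-fold on both arrays were 314 genes higher and 230 lower with processed signals and 273 and 201 with the series value table, against 174 and 115. The ratio itself pairs the groups within each array.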
